A study of Arabidopsis thaliana with 6 samples.

Results

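The complemented line *nerd-1*+T, in which the *nerd-1* mutant expresses a flag-tagged version of NERD, was compared with WT in order to describe which transcripts stayed different from WT although NERD had been put back. Of the 33242 genes of the 5 chromosomes in the series, 19351 were retained because they reached 1 FPKM in 2 or more libraries of these genotypes, and 18481 reached 1 FPKM in all 4. FPKM are reads assigned to a gene, scaled by its length in kilobases and by the mapped reads of the library. The comparison used 2 *nerd-1*+T libraries and 2 WT libraries of polyadenylated RNA from whole 14-d-old seedlings, and the 2 libraries of the parental *nerd-1* mutant are given beside them. All plants were *Arabidopsis thaliana* of the Col-0 ecotype. *nerd-1* carries a T-DNA insertion in *NERD*, and *nerd-1*+T carries the same insertion together with the *NERD* transgene. WT carries neither. A single complemented line was sequenced, so that an effect of the transgene, of its insertion site and of anything else particular to this line cannot be told apart. The promoter of the transgene is not given in the sources used here.

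NERD (needed for RDR2-independent DNA methylation) is a plant protein with a PHD finger and glycine-tryptophan repeats of the kind that bind ARGONAUTE proteins. It was first known for a role in small RNA-directed DNA methylation at young loci, and was later linked to m6A, a methyl mark on adenosines of mRNA, and to the correct ending of transcripts. When transcription runs past the end of one gene (GENE1) into the next one (GENE2), a chimeric mRNA is made. Complementation with a transgene is the classical way to ask whether a mutant trait comes from the loss of the mutated gene. Such a line can hold another amount of the gene product than WT does.

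*NERD* (AT2G16485; chromosome 2, 7136845 to 7145424, minus strand, TAIR10.1) had 63.7 and 63.5 FPKM in *nerd-1*+T, against 7.59 and 7.46 FPKM in *nerd-1* and 14.1 and 13.9 FPKM in WT. The genotypes did not overlap, and the level in *nerd-1*+T was 4.55 times that of WT (log2 change 2.11, SE 0.06, adjusted *p* = 0.000163, limma). This value sums reads from the endogenous copy and from the transgene, which cannot be told apart. Among the 20 tested genes on either side of *NERD*, 5 of 40 were called higher and 14 lower, against 12.0% and 35.0% among all genes. Their median log2 change was -0.14, against -0.17 for all genes. *ADC1* (AT2G16500), which encodes an arginine decarboxylase of polyamine synthesis and lies near *NERD*, had 60.4 and 58.3 FPKM in *nerd-1*+T, against 83.2 and 82.0 FPKM in *nerd-1* and 42.1 and 41.8 FPKM in WT (log2 change 0.49 against WT, adjusted *p* = 0.0038, limma). *ADC1* was picked after its values had been seen.

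The comparison was made with limma on log2(FPKM + 1), and a gene was called when its adjusted *p*-value was under 0.05. In *nerd-1*+T against WT, 2317 genes were called higher, which is 12.0% of the genes tested, and 6769 were called lower, which is 35.0%. Most of the lower calls were small, since the median change of all genes was -0.17 on the log2 scale. When the libraries were scaled to the same median, this shift disappeared and the calls became 3566 higher and 2894 lower, so that 55.2% of the calls were higher in place of 25.5%. Changes are therefore best read against the median: 684 genes (3.53%) were called higher and lay at least 1 log2 unit above it, and 269 (1.39%) were called lower and lay at least 1 log2 unit below it. Against *nerd-1*, which shares the *nerd-1*+T libraries with the first comparison, 30.5% of the genes tested were called in either direction. Without 1 WT library, the calls were 1362 higher and 2726 lower (without WT replicate 1) or 1343 higher and 2459 lower (without WT replicate 2).

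Replicates of *nerd-1*+T differed more from each other, with a median SD of log2(FPKM + 1) of 0.0894, against 0.0391 in WT. They correlated at 0.988 in *nerd-1*+T and 0.996 in WT. With 2 libraries per genotype, the smallest two-sided *p* of an exact permutation test is 0.333, so that the adjusted *p*-values draw on a spread estimated over many genes. In libraries made from whole seedlings, a change in the share of a cell type and a change of RNA per cell cannot be told apart. Among root markers, 3 of 6 tested were called lower and 1 higher, against 35.0% and 12.0% among all genes. Their summed levels were 1480 and 1640 FPKM in *nerd-1*+T against 2230 and 2210 FPKM in WT, most of it from *PYK10*, a myrosinase of roots. Of 6 root hair markers, 2 were called lower, with sums of 30.7 and 24.2 FPKM in *nerd-1*+T and 34.3 and 37.8 FPKM in WT. Of 9 floral organ markers 1 was expressed enough to be tested and was not called, and none of the 10 seed storage genes was. The leaf senescence marker *SAG12* was listed at 0 in all libraries, whereas *SAG13* and *SAG21* were called higher (log2 changes of 1.63 and 1.83). *ORE1*, the other senescence marker tested, was not called (-0.19). The part of these tissues in the results below was not tested.

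One stretch of chromosome 5 differed as a block. From AT5G53830 to AT5G55060 (chr5:21856948-22346646, 490 kb, TAIR10.1), 80 of the 97 genes tested were called higher and 0 lower, against 12.0% called higher among all genes. In 87 of the 97 genes both *nerd-1*+T libraries lay above both WT libraries. The median level was 1.78 times that of WT, with quartiles of 1.48 and 2.02, and was 1.89 times among the 55 genes with a WT mean of at least 10 FPKM. The stretch was found after the values had been seen, as the only run of the genome in which the median change over 21 neighbouring tested genes lay at least 0.5 log2 units above that of all genes. The running median reached 0.88 in this segment and did not exceed 0.23 elsewhere. Because its genes were picked by this contrast, these counts describe the segment and do not test it.

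Beside shares of 12.0% higher and 35.0% lower calls among all genes, genes on either side of the segment were not shifted upwards. The 20 tested genes just before it had 3 higher and 7 lower calls and a median log2 change of -0.08, and the 20 just after it had 2 higher and 5 lower calls and a median of -0.16. Inside it, the median was 0.73. The same stretch was also high in *nerd-1*, where the median level was 1.92 times that of WT and both *nerd-1* libraries lay above both WT libraries in 91 of the 97 genes. These values use the same WT libraries, so that a low level in WT and a high level in both other genotypes cannot be told apart from them. Between *nerd-1*+T and *nerd-1*, the median log2 change in the segment was -0.12, with 14 genes called higher and 25 lower. Of all genes tested in that comparison, 30.5% were called in either direction.

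**Figure D1:**
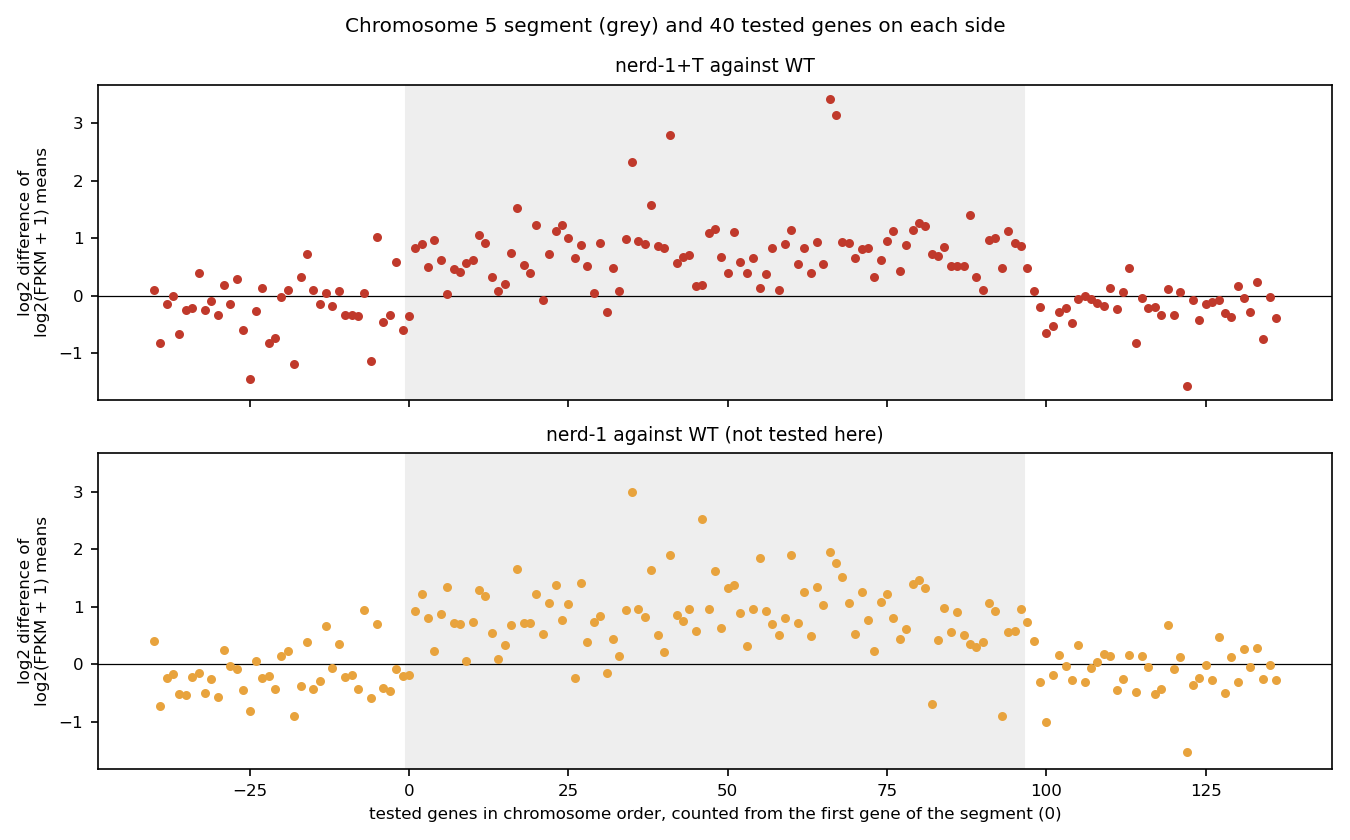
The log2 change against WT, on the log2(FPKM + 1) scale, of each tested gene in chromosome order along chromosome 5, in *nerd-1*+T (top) and in *nerd-1* (bottom), counted from the first gene of the segment, which is shaded grey. Points inside the shading centre on 0.73 in *nerd-1*+T and 0.83 in *nerd-1*, and those on either side centre near 0.

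Genes of unrelated roles shared the shift, as in 3 examples whose log2 changes (0.98 to 1.09) lay above the upper quartile of the segment. *OMT1* (AT5G54160), an *O*-methyltransferase of phenylpropanoid metabolism, had 279.5 and 283 FPKM in *nerd-1*+T, against 296 and 289.8 FPKM in *nerd-1* and 140.0 and 140.2 FPKM in WT. *MRE11* (AT5G54260), a nuclease of DNA repair, had 8.68 and 8.73 FPKM in *nerd-1*+T, against 8.28 and 8.64 FPKM in *nerd-1* and 3.99 and 3.82 FPKM in WT. *FQR1* (AT5G54500), a quinone reductase, had 334 and 367 FPKM in *nerd-1*+T, against 316 and 326 FPKM in *nerd-1* and 166 and 163 FPKM in WT. In these 3 genes *nerd-1*+T and *nerd-1* lay close together, and WT lay apart from both.

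Other genes of the segment went further or did not move. *THE1* (AT5G54380), a receptor kinase that senses the state of the cell wall, had 231 and 241 FPKM in *nerd-1*+T, against 125 and 126 FPKM in *nerd-1* and 32.5 and 33.4 FPKM in WT, a log2 change of 2.80 against WT (SE 0.06, adjusted *p* = 0.000163, limma). The neighbouring ankyrin repeat genes AT5G54710 and AT5G54720 rose by 3.42 and 3.15 log2 units and were among the largest changes of the genome. *LHCB3* (AT5G54270), a light-harvesting protein of photosystem II, had 5231 and 3639 FPKM in *nerd-1*+T, against 6814 and 7077 FPKM in *nerd-1* and 860.3 and 870.3 FPKM in WT. At the low end, the ion channel gene *CNGC4* (AT5G54250) had 21.6 and 19.3 FPKM in *nerd-1*+T, against 21.2 and 21.2 FPKM in *nerd-1* and 19.5 and 18.8 FPKM in WT and was not called. Runs of at least 3 neighbouring genes that were all called in the same direction, each at least 1 log2 unit from the median change, numbered 9 in the genome with 35 genes. All 9 were runs of higher genes, and 5 of them lay in the segment. The other 4 included *BXL2*, a beta-xylosidase of the cell wall, with its neighbours at the start of chromosome 1.

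Outside the segment, *PHI-1*, *TCH4* and *EXLA1* had 3 of the 4 largest increases. *PHI-1* (AT1G35140), an EXORDIUM family gene that encodes a secreted protein of the cell wall space, had 176 and 168 FPKM in *nerd-1*+T, against 99.5 and 95.3 FPKM in *nerd-1* and 2.11 and 2.50 FPKM in WT (log2 change 5.71 against WT, SE 0.08, adjusted *p* = 7.78e-05, limma). *TCH4* (AT5G57560), a touch-induced xyloglucan endotransglucosylase/hydrolase that cuts and rejoins wall polymers, had 1091 and 1120.0 FPKM in *nerd-1*+T, against 743 and 772 FPKM in *nerd-1* and 51.5 and 53.6 FPKM in WT (log2 change 4.37). Both genes were higher in *nerd-1*+T than in *nerd-1* as well, by 0.82 log2 units for *PHI-1* and 0.55 for *TCH4* (adjusted *p* = 0.00347 and 0.0117, limma). The expansin-like gene *EXLA1* (AT3G45970) had 267 and 311 FPKM in *nerd-1*+T, against 96.2 and 97.4 FPKM in *nerd-1* and 12.7 and 15 FPKM in WT (log2 change 4.29).

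Some of the large increases went well beyond *nerd-1*. *MIOX2* (AT2G19800), a *myo*-inositol oxygenase that feeds precursors of wall polysaccharides, had 344 and 402 FPKM in *nerd-1*+T, against 49.6 and 52.4 FPKM in *nerd-1* and 38.5 and 36.3 FPKM in WT. Its log2 change was 3.28 against WT (SE 0.10, adjusted *p* = 0.000163, limma) and 2.84 against *nerd-1* (adjusted *p* = 0.00102, limma). *WRKY18* (AT4G31800), a transcription factor of defence and abscisic acid responses, had 74.0 and 97.3 FPKM in *nerd-1*+T, against 23.4 and 24.2 FPKM in *nerd-1* and 8.43 and 7.85 FPKM in WT (log2 change 3.23 against WT and 1.79 against *nerd-1*, adjusted *p* = 0.000299 and 0.00308, limma). For other genes, *nerd-1*+T and *nerd-1* lay side by side: AT1G02660, a predicted lipase-like hydrolase gene, had 66.3 and 65.7 FPKM in *nerd-1*+T, against 59.9 and 57.4 FPKM in *nerd-1* and 7.12 and 7.77 FPKM in WT. The 15 largest increases also included the ethylene response factor gene *DREB26* (log2 change 3.15), the blue copper protein gene *BCB* (3.34), and AT1G50040 and AT3G19680, which share a domain of unknown function (3.40 and 3.1). The RING finger gene AT1G35183, with the other of these 4 (log2 change 4.78), had 25.1 and 27.9 FPKM in *nerd-1*+T, but was listed at 0 in both WT libraries and in *nerd-1* replicate 1, and had 19.5 FPKM in *nerd-1* replicate 2.

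**Figure D2:**
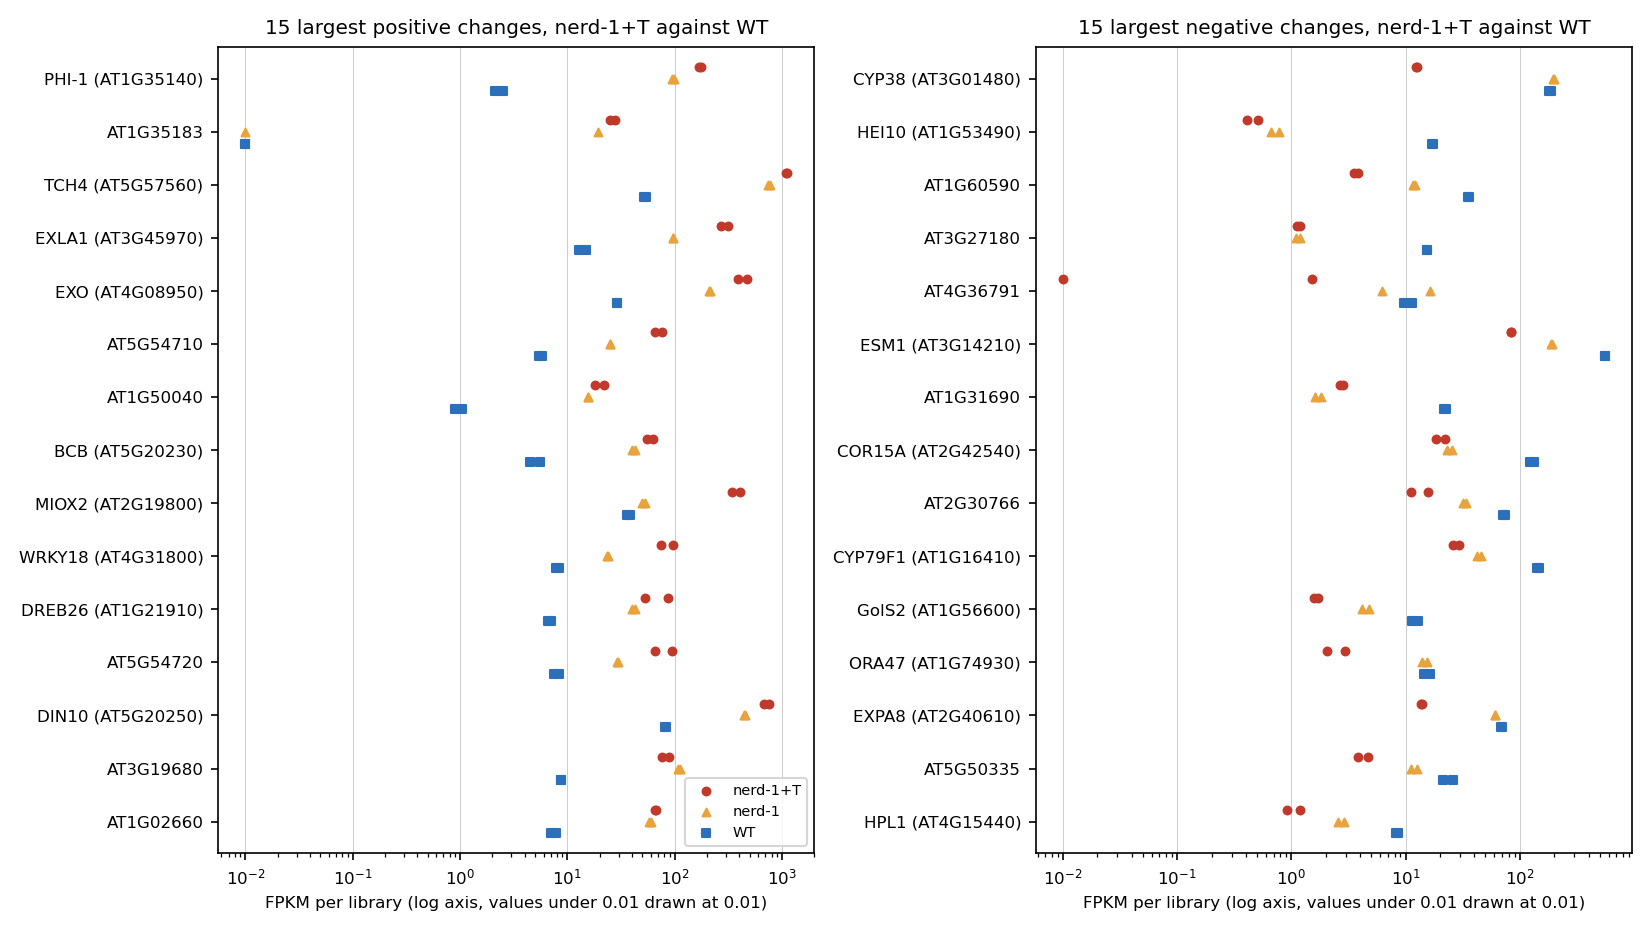
FPKM on a log axis in each library for the 15 genes with the largest increase (left) and the 15 with the largest decrease (right) in *nerd-1*+T against WT. Each symbol is 1 library; in every row both *nerd-1*+T libraries lie on one side of both WT libraries.

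The wall-modifying families did not move as one. Of the 7 EXORDIUM family genes tested, 6 were called higher and 1 lower, against 12.0% and 35.0% among all genes, with a median log2 change of 2.24; *EXO* (AT4G08950), the founding member and a brassinosteroid-induced gene, had 391 and 472 FPKM in *nerd-1*+T, against 214 and 208 FPKM in *nerd-1* and 29.2 and 28.9 FPKM in WT (log2 change 3.84). The lower member, *EXL7*, was close to the threshold (log2 change -0.31, adjusted *p* = 0.0479, limma), and was not called with the libraries scaled to the same median. Of 29 xyloglucan endotransglucosylase/hydrolase genes tested, 14 were called higher and 4 lower. *XTH24* had 554 and 490.0 FPKM in *nerd-1*+T, against 192 and 203 FPKM in *nerd-1* and 92.2 and 94.8 FPKM in WT, and *XTR6*, *XTH25* and *XTH16* rose by 2.88, 2.68 and 2.48 log2 units. In the opposite direction, *XTH31* fell by 1.55 log2 units.

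The alpha- and beta-expansins, which loosen walls during cell growth, went down: of 18 tested, 13 were called lower and 0 higher, with a median log2 change of -0.63, against 35.0% lower calls among all genes. *EXPA8* (AT2G40610) had 13.7 and 13.9 FPKM in *nerd-1*+T, against 60.8 and 60.8 FPKM in *nerd-1* and 69.7 and 68.6 FPKM in WT (log2 change -2.25, SE 0.06, adjusted *p* = 0.000163, limma). *EXPA1* (AT1G69530) had 40.6 and 42.2 FPKM in *nerd-1*+T, against 93.3 and 96.6 FPKM in *nerd-1* and 152 and 154 FPKM in WT. *EXP3*, *EXPA15* and *EXPA10* fell by 1.69, 1.31 and 1.1 log2 units. For *EXPA8*, *nerd-1* lay near WT, whereas for *EXPA1* it lay between the other genotypes. Among the 4 expansin-like genes tested, *EXLA1* and *EXLA2* were called higher and *EXLB1* lower. These families were chosen after their values had been seen. With the median-scaled libraries the counts were 17 higher and 3 lower for the xyloglucan genes, and 1 higher and 9 lower for the expansins.

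Transcripts known to accumulate when sugar runs short were higher. Of 14 carbon starvation genes, 13 were called higher and 0 lower, against 12.0% higher calls among all genes, with a median log2 change of 1.11. *DIN10* (AT5G20250), a dark-induced gene of the raffinose synthase family, had 761 and 686 FPKM in *nerd-1*+T, against 446 and 454 FPKM in *nerd-1* and 81.1 and 82.6 FPKM in WT (log2 change 3.13, SE 0.08, adjusted *p* = 0.000163, limma). *ASN1* (AT3G47340), the dark-induced asparagine synthetase, had 367 and 312 FPKM in *nerd-1*+T, against 227 and 232 FPKM in *nerd-1* and 42.2 and 43.2 FPKM in WT. *TPS11*, a trehalose phosphate synthase-like gene, and *SEN1* rose by 1.98 and 1.73 log2 units, and the bZIP factor gene *BZIP63* by 1.44. The 1 member not called was AT3G59940, a kelch repeat F-box gene, with 91.8 and 90.8 FPKM in *nerd-1*+T, against 89.0 and 86.2 FPKM in WT. For this list *nerd-1* was also above WT, with a median log2 difference of 0.90.

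A list of 47 genes held photosystem and light-harvesting genes together with genes of Rubisco, the carbon-fixing enzyme, and its activase. Of these 47, 17 were called higher and 2 lower, against 12.0% and 35.0% among all genes, with a median log2 change of 0.26. With the median-scaled libraries, 27 were called higher and 1 lower. In the main comparison both lower calls were Rubisco small subunit genes, *RBCS1B* (-0.74) and *RBCS2B* (-0.41). Most higher calls were *LHCA* and *LHCB* genes, and among *PSA* and *PSB* genes only *PSAN* and *PSBW* were called higher. *LHCB1.1* (AT1G29920) had 3022 and 2672 FPKM in *nerd-1*+T, against 2824 and 2799 FPKM in *nerd-1* and 668 and 687 FPKM in WT. *LHCB2.3* had 997 and 1014 FPKM in *nerd-1*+T, against 815 and 811 FPKM in *nerd-1* and 234 and 237 FPKM in WT. The *LHCB1* and *LHCB2* genes are near-identical copies, and the sharing of reads between them by the quantification is uncertain: *LHCB1.3* was listed at 13470 and 0 FPKM in *nerd-1*+T, at 0 in both *nerd-1* libraries, and at 11760 and 11620 FPKM in WT. *LHCB3* belongs to both this list and the chromosome 5 segment. Of 18 auxin response genes, 8 were called higher and 3 lower (11 and 2 with the median-scaled libraries), led by the repressor genes *IAA3*, *IAA2* and *IAA19* (log2 changes of 1.1, 0.89 and 0.89).

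The copper regulon set *nerd-1*+T apart from both other genotypes. In plants, the transcription factor SPL7 switches on copper uptake genes and the miRNAs of copper economy when copper is short, through GTAC motifs in their promoters. These miRNAs then lower the mRNAs of copper proteins that can be spared, such as Cu/Zn superoxide dismutases and laccases. The mature forms are shown because the precursors of miR398c, miR408 and miR857 lay below WT in *nerd-1*+T, and miR398a-3p for its shared seed; capitals mark the seed, bases 2 to 8, and the sequences are those of RefSeq for TAIR10.1. miR398b-3p and miR398c-3p have the same sequence and share their seed with miR398a-3p.
miR398c-3p: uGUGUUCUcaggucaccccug
miR398a-3p: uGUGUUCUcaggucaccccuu
miR408-3p: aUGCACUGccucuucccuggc
miR857: uUUUGUAUguugaagguguau

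The precursor of miR408 (AT2G47015) had 1.77 and 1.41 FPKM in *nerd-1*+T, against 9.83 and 9.79 FPKM in *nerd-1* and 7.60 and 7.34 FPKM in WT (log2 change -1.72 against WT, SE 0.10, adjusted *p* = 0.000584, limma). That of miR398c (AT5G14565) had 1.13 and 1.29 FPKM in *nerd-1*+T, against 2.99 and 3.37 FPKM in *nerd-1* and 4.16 and 4.18 FPKM in WT (log2 change -1.23, adjusted *p* = 0.000905). That of miR857 (AT4G13554) had 0.154 and 0.154 FPKM in *nerd-1*+T, against 0.899 and 1.29 FPKM in *nerd-1* and 3.92 and 2.67 FPKM in WT. In all 3 precursors the *nerd-1*+T libraries lay below the other 4. The precursors of miR398a, miR398b, miR397a and miR397b were listed at 0 in all libraries. These are levels of polyadenylated precursor, and mature miRNAs were not measured.

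Of 10 tested genes known as targets of copper miRNAs, 8 were called higher in *nerd-1*+T and 0 lower, against 12.0% higher calls among all genes, with a median log2 change of 0.64. The list was chosen after its values had been seen, and it includes *LAC2*, *LAC4* and *LAC17*, known as targets of miR397, whose precursors were listed at 0. *CSD1* (AT1G08830), the cytosolic Cu/Zn superoxide dismutase and a miR398 target, had 67.2 and 50.1 FPKM in *nerd-1*+T, against 23.0 and 22.3 FPKM in *nerd-1* and 13.1 and 12.6 FPKM in WT (log2 change 2.09, SE 0.14, adjusted *p* = 0.000815, limma). *CSD2* (AT2G28190), its plastid counterpart, had 57.6 and 66.1 FPKM in *nerd-1*+T, against 11.3 and 12.4 FPKM in *nerd-1* and 18.1 and 17.9 FPKM in WT (log2 change 1.73 against WT and 2.29 against *nerd-1*, adjusted *p* = 0.000403 and 0.00112, limma). *CCS*, the chaperone that loads these enzymes with copper, rose by 0.66 log2 units. Among laccase genes, which encode multicopper oxidases of the cell wall, *LAC2* had 2.12 and 2.17 FPKM in *nerd-1*+T, against 0.358 and 0.268 FPKM in *nerd-1* and 0.719 and 0.455 FPKM in WT. *LAC4*, *LAC7* and *LAC3* rose by 0.61, 0.32 and 0.28 log2 units and the plantacyanin gene *ARPN*, a miR408 target, by 0.71, whereas *LAC13* and *LAC17* were not called (log2 changes of -0.33 and -0.13). The median of the target list in *nerd-1* was -0.34 against WT.

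Several genes of copper uptake were lower, whereas the copper transporter gene *COPT1* was not called (log2 change 0.13). *COPT2* (AT3G46900), a copper transporter of the plasma membrane, had 14.2 and 19.6 FPKM in *nerd-1*+T, against 62.1 and 58.8 FPKM in *nerd-1* and 60.4 and 59.4 FPKM in WT (log2 change -1.78, SE 0.15, adjusted *p* = 0.00138, limma). *FRO4* (AT5G23980), a metal reductase, had 6.52 and 6.82 FPKM in *nerd-1*+T, against 22.2 and 20.9 FPKM in *nerd-1* and 24.3 and 25.3 FPKM in WT. Its neighbour and close relative *FRO5* had 0.132 and 0.208 FPKM in *nerd-1*+T, against 3.65 and 3.70 FPKM in *nerd-1* and 3.52 and 3.57 FPKM in WT. In *COPT2*, *FRO4* and *FRO5*, *nerd-1* lay with WT. The copper chaperone gene *CCH* fell by 0.79 log2 units, the transporter gene *ZIP2* by 0.81, and the iron superoxide dismutase gene *FSD1*, which replaces the copper enzymes under copper shortage, by 0.57. *SPL7* itself had 12.0 and 11.2 FPKM in *nerd-1*+T, against 15.68 and 15.2 FPKM in *nerd-1* and 15.8 and 16.1 FPKM in WT (log2 change -0.43, adjusted *p* = 0.00834, limma). Of the 21 genes of the wider copper list, 4 were called higher and 12 lower, against 12.0% and 35.0% among all genes. Metallothionein *MT1A* was uneven between replicates, with 30610 and 9330 FPKM in *nerd-1*+T, against 122400 and 130400 FPKM in *nerd-1* and 13760 and 14740 FPKM in WT, and was not called against WT.

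**Figure D3:**
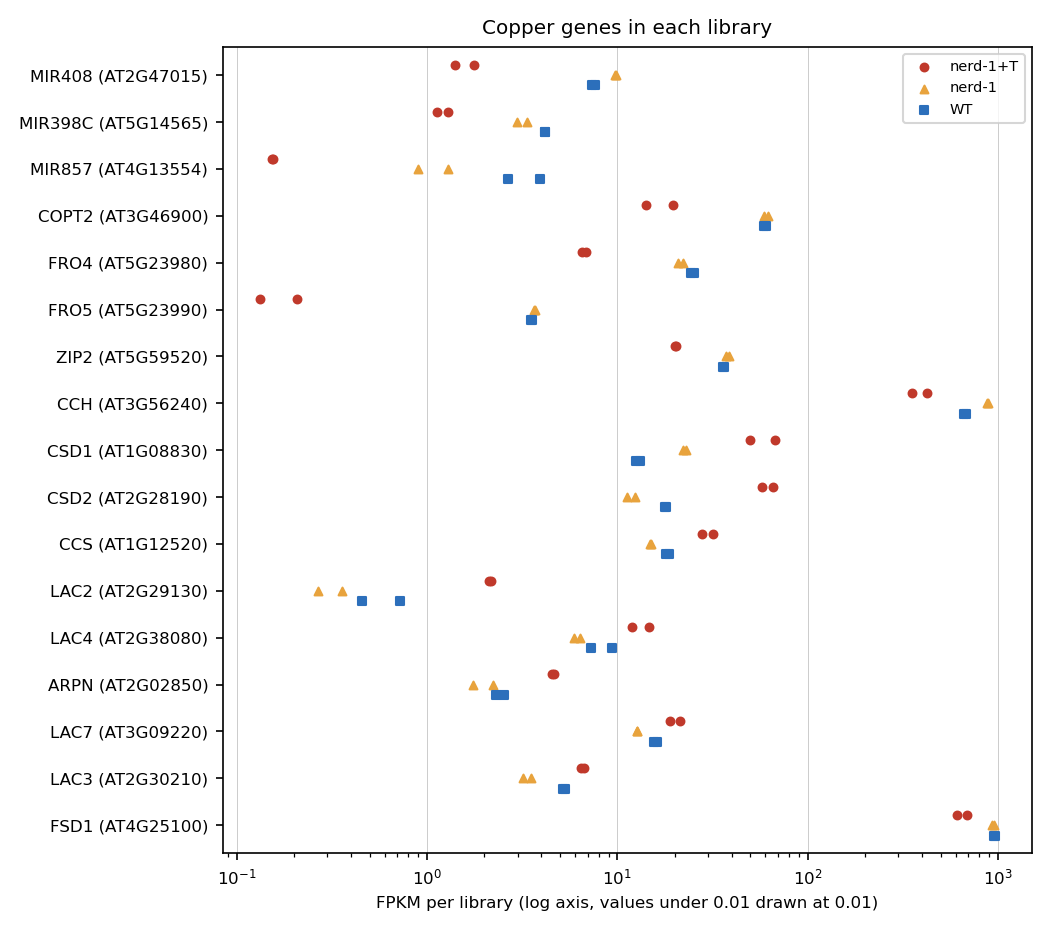
FPKM on a log axis in each library for precursors of copper miRNAs, copper uptake genes and miRNA targets. Each symbol is 1 library; the *nerd-1*+T libraries lie below WT in the first 8 rows and in *FSD1*, and above WT in *CSD1*, *CSD2*, *CCS*, the 4 laccases and *ARPN*.

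The letters GTAC were searched in the 250 bases before the annotated start of these genes. Since GTAC reads the same on both strands, 1 search covers both. They occurred 4 times before *MIR408*, 3 times before *MIR398C* and *ZIP2*, once before *CCH* and *FSD1*, and not before *MIR857*, *COPT2*, *FRO4* or *FRO5*. Among 18867 windows of the same length before tested protein-coding genes, 34.6% held at least 1, 1.41% at least 3 and 0.239% at least 4. These windows do not include those of miRNA genes. The windows of the miRNA genes that held matches are shown, with GTAC in capitals (RefSeq annotation of TAIR10.1, *MIR408* at chr2:19319564-19319813, plus strand, and *MIR398C* at chr5:4694444-4694693, plus strand).
MIR408: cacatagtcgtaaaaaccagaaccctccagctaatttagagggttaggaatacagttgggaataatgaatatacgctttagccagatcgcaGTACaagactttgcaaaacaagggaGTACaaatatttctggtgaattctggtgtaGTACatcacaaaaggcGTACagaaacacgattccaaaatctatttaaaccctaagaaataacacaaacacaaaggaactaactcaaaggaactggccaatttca
MIR398C: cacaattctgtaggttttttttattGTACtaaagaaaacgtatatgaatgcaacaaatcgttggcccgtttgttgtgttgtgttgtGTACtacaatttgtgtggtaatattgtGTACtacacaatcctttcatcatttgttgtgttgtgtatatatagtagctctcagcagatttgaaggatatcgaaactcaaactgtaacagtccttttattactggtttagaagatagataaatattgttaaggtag
A match is a description of the sequence, and a window without one says only that these letters are not in it.

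The largest decreases were of several kinds. *CYP38* (AT3G01480), a cyclophilin of the thylakoid lumen needed to assemble photosystem II, had 12.6 and 12.3 FPKM in *nerd-1*+T, against 196 and 199 FPKM in *nerd-1* and 186 and 181 FPKM in WT (log2 change -3.78 against WT and -3.89 against *nerd-1*, adjusted *p* = 7.78e-05 and 0.000233, limma). It was thus low in the complemented line alone. The tandem genes AT1G72920 and AT1G72910, which encode TIR-domain proteins of the kind found in immune receptors, had the same pattern: AT1G72920 had 2.93 and 3.15 FPKM in *nerd-1*+T, against 19.5 and 21.7 FPKM in *nerd-1* and 17.1 and 17.9 FPKM in WT. This pair was chosen after its values had been seen. *ORA47* (AT1G74930), a regulator of jasmonate synthesis, had 2.97 and 2.05 FPKM in *nerd-1*+T, against 15.4 and 14.0 FPKM in *nerd-1* and 14.6 and 16.5 FPKM in WT.

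Other genes were low in both *nerd-1*+T and *nerd-1*. *HEI10* (AT1G53490), a RING protein that promotes meiotic crossovers, had 0.406 and 0.506 FPKM in *nerd-1*+T, against 0.780 and 0.662 FPKM in *nerd-1* and 17.3 and 16.9 FPKM in WT (log2 change -3.64, SE 0.08, adjusted *p* = 0.000163, limma). The adjacent gene *MRD1* (AT1G53480), chosen after its values had been seen, had 0.0285 FPKM and was listed at 0 in the *nerd-1*+T libraries, against 2.2 and 2.74 FPKM in WT. AT3G27180, annotated as a methyltransferase, had 1.12 and 1.18 FPKM in *nerd-1*+T, against 1.09 and 1.19 FPKM in *nerd-1* and 15.5 and 15.3 FPKM in WT. The copper amine oxidase gene AT1G31690 had 2.81 and 2.69 FPKM in *nerd-1*+T, against 1.62 and 1.81 FPKM in *nerd-1* and 21.6 and 22.6 FPKM in WT. In these genes WT lay far above both other genotypes. AT1G60590, a pectin lyase-like gene, *GolS2*, a galactinol synthase, and *HPL1*, a hydroperoxide lyase of leaf volatiles, fell by 2.96, 2.3 and 2.21 log2 units and had intermediate levels in *nerd-1*. AT4G36791 was listed at 0 in *nerd-1*+T replicate 2, and its decrease is uncertain for that reason.

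All genes of the aliphatic glucosinolate list were lower. Glucosinolates are sulphur-rich defence compounds of the cabbage family, and those of the aliphatic class are made from methionine. Of 20 genes tested, 20 were called lower, against 35.0% of all genes, with log2 changes between -2.34 and -0.60 and a median of -1.30. *CYP79F1* (AT1G16410), which makes the first step of the core pathway, had 26.1 and 29.6 FPKM in *nerd-1*+T, against 45.4 and 42.2 FPKM in *nerd-1* and 147 and 143 FPKM in WT (log2 change -2.34, SE 0.08, adjusted *p* = 0.000204, limma). The regulators *MYB29* and *MYB28*, which switch the pathway on, behaved alike: *MYB28* (AT5G61420) had 40.5 and 48.1 FPKM in *nerd-1*+T, against 63.3 and 64.2 FPKM in *nerd-1* and 162 and 163 FPKM in WT. The 20 calls also stood with the libraries scaled to the same median. The list had a median of -0.94 in *nerd-1* against WT, and *CYP79F1* was lower in *nerd-1*+T than in *nerd-1* by 0.64 log2 units (adjusted *p* = 0.00962, limma). *ESM1* (AT3G14210), which steers glucosinolate breakdown towards isothiocyanates, had 84.1 and 84.0 FPKM in *nerd-1*+T, against 188 and 193 FPKM in *nerd-1* and 554 and 556 FPKM in WT.

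The indole class, made from tryptophan, was mixed, with 8 of 13 genes called lower and 4 higher, against 35.0% and 12.0% among all genes. With the median-scaled libraries, 5 were called lower and 4 higher. The regulator gene *MYB34* had 20.3 and 23.4 FPKM in *nerd-1*+T, against 24.2 and 24.8 FPKM in *nerd-1* and 55.9 and 54.0 FPKM in WT, and *CYP79B2* fell by 1.07 log2 units. The modifying enzyme gene *CYP81F2*, known for pathogen-induced indole compounds, went the other way, with 13.8 and 14.7 FPKM in *nerd-1*+T, against 14.8 and 14.1 FPKM in *nerd-1* and 2.71 and 2.48 FPKM in WT (log2 change 2.09). For *CYP81F2* the levels of *nerd-1*+T and *nerd-1* overlapped. Of 15 flavonoid genes, 9 were called lower and 1 higher (6 and 1 of 14 with the median-scaled libraries), among them *CHI* (log2 change -1.12) and *FLS1* (-0.85).

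Cold-response genes were mostly lower, with 10 of 17 called lower and 1 higher, against 35.0% and 12.0% among all genes. Their median log2 change was -0.70. CBF proteins bind the C-repeat (core letters CCGAC) and switch on the *COR* genes. *COR15A* (AT2G42540), a protectant of chloroplast membranes, had 18.6 and 22.3 FPKM in *nerd-1*+T, against 23.2 and 25.7 FPKM in *nerd-1* and 132 and 124 FPKM in WT (log2 change -2.59, SE 0.10, adjusted *p* = 0.000264, limma). *COR15B* had 46.5 and 50.2 FPKM in *nerd-1*+T, against 93.6 and 97.1 FPKM in *nerd-1* and 229.7 and 217 FPKM in WT. Of the *CBF* genes, *CBF1* fell by 2.13 and *CBF3* by 1.74 log2 units, while *CBF2*, the 1 member called higher, had 7.04 and 6.32 FPKM in *nerd-1*+T, against 19.4 and 19.9 FPKM in *nerd-1* and 5.01 and 5.40 FPKM in WT. The dehydrin genes *RAB18*, *ERD10*, *COR47* and *XERO2* were not called. *KIN1* and *KIN2*, tandem copies that may share reads, fell by 1.69 and 1.59 log2 units.

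The core letters CCGAC, searched on both strands of the 250 bases before the start, occurred at least 1 time in 13.0% of windows and at least 2 times in 1.70%. The window of *COR15A* held 2, that of *RD29A* (log2 change -1.13) held 3, and that of *COR15B* held 0. Of the 8 genes called lower whose windows were searched, 4 held none: *COR15B*, *KIN1*, *KIN2* and *COR413IM1*. The window of *XERO2*, which was not called, also held 3. The *COR15A* window is shown because this gene had the largest decrease of the list (RefSeq, TAIR10.1, chr2:17712331-17712580, minus strand; capitals mark the core letters, written GTCGG where they lie on the opposite strand).
COR15A: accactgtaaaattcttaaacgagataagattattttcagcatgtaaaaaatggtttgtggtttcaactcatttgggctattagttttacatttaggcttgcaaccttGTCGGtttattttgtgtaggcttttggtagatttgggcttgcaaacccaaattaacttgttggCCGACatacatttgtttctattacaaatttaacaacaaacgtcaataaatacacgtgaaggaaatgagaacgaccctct

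Phosphate and heat genes called were lower, and iron genes went both ways, where 35.0% of all genes were called lower and 12.0% higher. Of 19 phosphate starvation genes tested, 11 were called lower and 0 higher (9 and 2 of 20 with the libraries scaled to the same median). *PAP17*, a purple acid phosphatase, had 3.75 and 3.86 FPKM in *nerd-1*+T, against 12.0 and 11.9 FPKM in *nerd-1* and 21.5 and 20.8 FPKM in WT, and the phosphate sensor gene *SPX1* had 14.5 and 12.8 FPKM in *nerd-1*+T, against 30.8 and 30.5 FPKM in *nerd-1* and 57.9 and 57.1 FPKM in WT. Of 14 heat shock genes, 11 were called lower and 0 higher, with *HSP70-4* at -1.42 and *MBF1C* at -1.24. Of 21 iron genes, 12 were called lower and 4 higher (9 and 5 of 22 with the median-scaled libraries), with a median of -0.31 against -0.17 for all genes. *IMA3* (AT2G30766) had 11.1 and 15.72 FPKM in *nerd-1*+T, against 33.7 and 32.0 FPKM in *nerd-1* and 74.0 and 71.5 FPKM in WT. *IMA2* (AT1G47395) and *IMA1* (AT1G47400) fell by 1.83 and 1.23 log2 units, and the regulator gene *PYE* by 1.72. The root uptake genes *IRT1*, an iron transporter, and *FRO2*, an iron reductase, were called higher (log2 changes of 0.95 and 0.67).

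Touch and early stress genes split into groups. The classical touch genes stayed high: *TCH3* (AT2G41100), a calmodulin-like calcium sensor, had 818 and 834 FPKM in *nerd-1*+T, against 657 and 678 FPKM in *nerd-1* and 113 and 111 FPKM in WT, and *TCH2* rose by 1.2 log2 units. Transcription factor genes of the same list went both ways: *WRKY18* and *ERF1A* (log2 changes of 3.23 and 0.53) were called higher, *ERF6*, *ERF2* and *ZAT12* were not called, and others, such as the 3 that follow, were called lower. *ERF5* (AT5G47230), an ethylene response factor, had 6.75 and 7.70 FPKM in *nerd-1*+T, against 30.9 and 33.4 FPKM in *nerd-1* and 34.4 and 36.8 FPKM in WT. *WRKY33* (AT2G38470), a regulator of camalexin defence, had 23.61 and 27.4 FPKM in *nerd-1*+T, against 121 and 126 FPKM in *nerd-1* and 40.8 and 45.6 FPKM in WT. *ZAT6* had 6.97 and 6.50 FPKM in *nerd-1*+T, against 33.5 and 36.0 FPKM in *nerd-1* and 19.0 and 19.8 FPKM in WT. In all, 6 of 27 members were called higher and 16 lower, against 12.0% and 35.0% among all genes. With the median-scaled libraries, 7 of 28 were called higher and 13 lower. The list median was -0.40 in *nerd-1*+T against 0.90 in *nerd-1*. *TCH2*, *ERF1A*, the genes not called and the last 3 genes were named after their values had been seen.

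Hormone and clock lists were divided, beside shares of 12.0% higher and 35.0% lower calls among all genes. The lower calls of the jasmonate and cuticular wax lists (37.9% and 41.7%) lay near that of all genes. Of 29 jasmonate genes, 10 were called higher and 11 lower (11 and 7 with the median-scaled libraries). *JAZ7*, a repressor of the pathway, had 11.6 and 15.1 FPKM in *nerd-1*+T, against 9.0 and 9.96 FPKM in *nerd-1* and 1.15 and 0.974 FPKM in WT, and *CYP94C1*, which inactivates the hormone, rose by 2.01 log2 units. *LOX2*, an enzyme of jasmonate synthesis, had 82.5 and 84.0 FPKM in *nerd-1*+T, against 94.2 and 92.8 FPKM in *nerd-1* and 244 and 244 FPKM in WT. Of 18 salicylic acid genes, 4 were called higher and 4 lower, and none of these moved by more than 0.58 log2 units. Of 25 clock genes, 6 were called higher and 12 lower, or 7 and 7 with the libraries scaled to the same median. The morning gene *CCA1* had 52.4 and 55.2 FPKM in *nerd-1*+T, against 57.7 and 58.7 FPKM in *nerd-1* and 28.4 and 29.0 FPKM in WT, and *PRR9*, which follows it in the day, fell by 1.21 log2 units. Sampling times are not given in the sources used here. Of 12 cuticular wax genes, 3 were called higher and 5 lower, led by *KCS1* (log2 change 0.92) and *CER10* (-0.70).

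Genes of the pathways to which NERD has been linked moved by less than 1 log2 unit. None of the tested genes of small RNA silencing (17), of DNA methylation and demethylation (25) or of m6A writing, removal and reading (12) was called higher, and 6, 8 and 6 of them were called lower, against 35.0% lower calls among all genes. With the libraries scaled to the same median, 3 genes of each list were called lower, and 2 DNA methylation genes were called higher. The largest changes were those of *AGO7* (-0.83), the DNA demethylase gene *ROS1* (-0.74) and the m6A reader gene *ECT4* (-0.52). In the 3' end formation list, 11 of 19 were called lower and 1 higher, but 2 lower and 1 higher with the libraries scaled to the same median. None of the 8 histone H4 genes was called. Among 7 reference genes, *ACT2* (0.37) and *UBQ10* (0.41) were called higher and AT2G28390 (-0.27) lower, while *PP2AA3* had 30.5 and 28.8 FPKM in *nerd-1*+T, against 30.1 and 30.8 FPKM in WT and was not called.

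The gene pairs at which chimeric mRNAs form in *nerd-1* had been chosen by the study on these genotypes, and are therefore no independent evidence on *nerd-1*. Of the GENE2s, 13 of 37 reached the filter in *nerd-1*+T and WT. Of these 13, 0 were called higher and 3 lower, against 12.0% and 35.0% among all genes. With the libraries scaled to the same median, 1 was called higher and 1 lower. The median log2 change of the 13 was -0.10 in *nerd-1*+T and 1.03 in *nerd-1*, both against the same WT libraries. The filter used no *nerd-1* library, so GENE2s expressed only in *nerd-1* are in neither median. AT3G17660 had 2.24 and 2.74 FPKM in *nerd-1*+T, against 8.27 and 8.36 FPKM in *nerd-1* and 3.99 and 3.5 FPKM in WT. Of 36 GENE1s, 2 were called higher and 13 (36.1%) lower, with a median of -0.19 in *nerd-1*+T. These lower calls and this median were near the 35.0% and -0.17 of all genes. With the libraries scaled to the same median, 6 GENE1s were called higher and 3 lower. The pseudogene AT5G35935, which contains *psORF*, differed from the GENE2s and stayed higher in *nerd-1*+T, by 1.26 log2 units (adjusted *p* = 0.00265, limma).

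**Figure D4:**
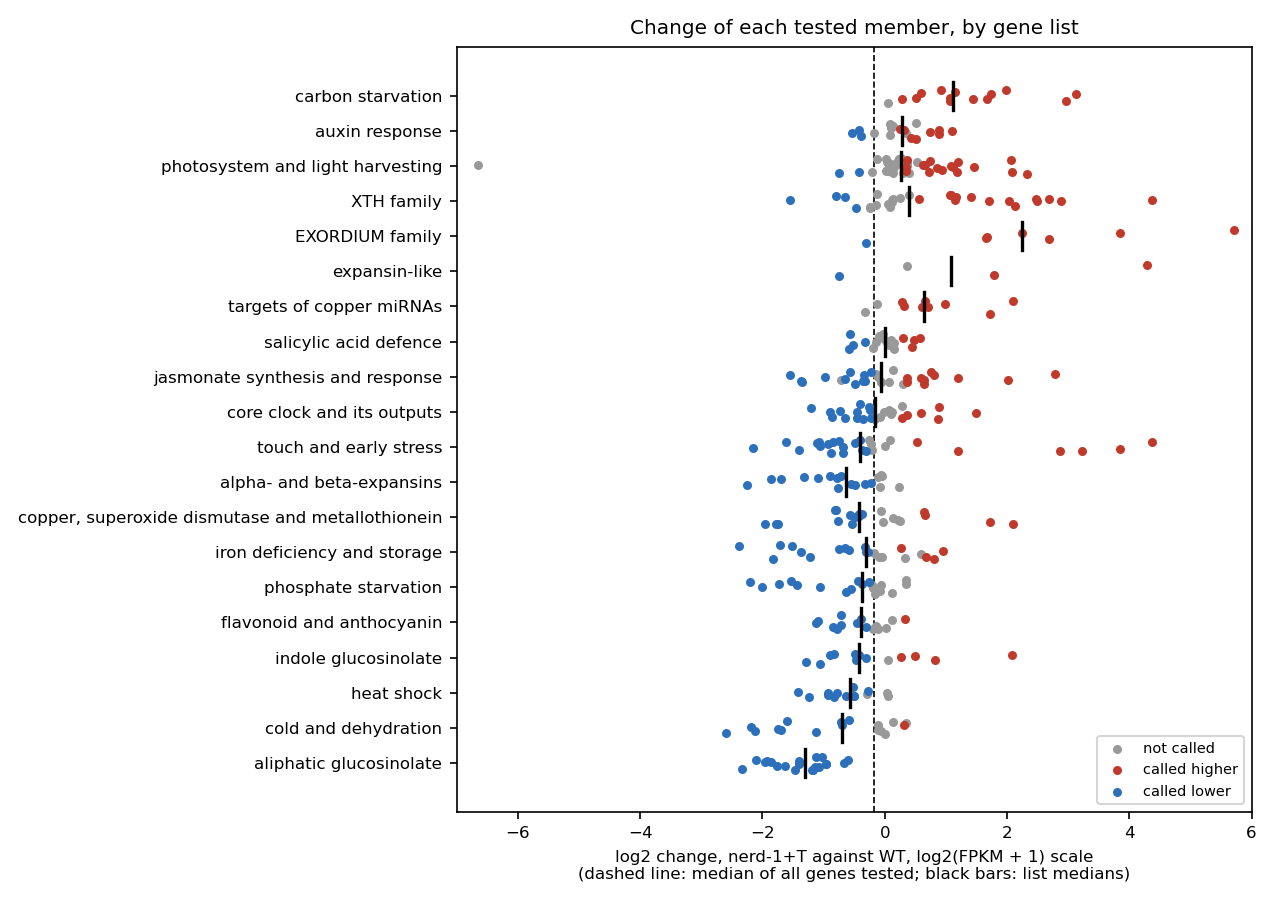
Log2 change in *nerd-1*+T against WT, on the log2(FPKM + 1) scale, of each tested member of the gene lists (rows); colours give the call, black bars the list medians, and the dashed line the median of all genes tested (-0.17). All 20 aliphatic glucosinolate genes lie left of the line, and all 14 carbon starvation genes lie right of it; the single grey point near -6.66 is *LHCB1.3*, which was listed at 0 in *nerd-1*+T replicate 2.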

How the data were processed

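Polyadenylated RNA of 14-d-old seedlings was sequenced by the authors from 2 replicates per genotype (single-end stranded libraries). They removed chloroplast, mitochondrial and ribosomal RNA reads with Bowtie2 2.3.4, mapped the rest to TAIR10 with TopHat2 2.0.7 and estimated FPKM per library with Cufflinks 2.2.1 (versions as in their methods and processing notes). The deposited FPKM hold no read counts, so the depth behind a value is unknown, and a 0 can be a failed estimate. The authors' Cuffdiff test was not rerun.

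Genes that reached 1 FPKM in 2 or more of the 4 libraries of *nerd-1*+T and WT were tested on log2(FPKM + 1) with limma 3.58.1 in R 4.3.3 (mean-variance trend, no block, two-sided, Benjamini-Hochberg over 19351 genes, threshold 0.05). The pseudocount of 1 understates changes of low genes. A second fit compared *nerd-1*+T with *nerd-1*. The fits were tested on simulated data. Whether replicates came from separate cultures is not given in the sources used here, so the *p*-values measure the spread between these libraries only. Replicate numbers were not treated as pairs.

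Named genes were *NERD*, the 15 largest increases and decreases among called genes with separated libraries and a mean of at least 1 FPKM, the 4 most changed called members of each list (all called members where 5 or fewer were called), AT5G35935, the reference genes, and genes of the runs. Genes and lists were chosen with earlier results of these data known. The segment, the wall families, the copper miRNAs with their targets and other list members named were chosen after their values were seen. Positions and sequences are from RefSeq for TAIR10.1, in which 19300 of the tested genes have a position. A list of cytosolic ribosomal proteins was laid out but could not be assembled from this annotation. Python 3.11.15 with pandas 2.3.3 and matplotlib 3.10.9 was used for summaries and figures. Alternatives were another scaling, pseudocount, filter, block, set of libraries and trend, and leaving out each library or the segment.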

Additional observations from a re-analysis of the deposited data

Results flagged for a closer look

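Transposable elements have entries of their own in the files and were outside the gene comparison. Of 592 elements that passed the same filter in the libraries of *nerd-1*+T and WT, 44 were called higher in *nerd-1*+T (7.43%) and 152 lower (25.7%), in a limma fit of genes and elements together, with *p*-values adjusted over both. Both shares lay below those of the gene comparison, in which 12.0% of genes were called higher and 35.0% lower. The elements are given here because the rest of the report did not use them. Of the 44 elements, 10 were listed at 0 in both WT libraries, and these passed the filter only through the *nerd-1*+T libraries. AT1TE79760 had 11.3 and 23.61 FPKM in *nerd-1*+T, but was listed at 0 in both *nerd-1* and both WT libraries. AT5TE14765 had 58.5 and 58.0 FPKM in *nerd-1*+T, against 22.9 FPKM and 0 in *nerd-1* and 0 in both WT libraries. In the other direction, AT2TE59470 was listed at 0 in *nerd-1*+T and *nerd-1*, against 1062 and 545.7 FPKM in WT. An element and a gene that overlaps it can draw on the same reads, and the part of this in the calls was not tested.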

How the results depend on the processing

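The increase of *NERD* was called under every alternative tried. Scaling the libraries to the same median gave 3566 genes called higher and 2894 called lower, in place of 2317 and 6769, and the cause was not tested. Leaving out 1 library gave between 1343 and 3336 genes called higher and between 2459 and 8880 called lower, with 1362 and 2726 without WT replicate 1, 1343 and 2459 without WT replicate 2, and the highest counts without *nerd-1*+T replicate 2. With 1 library in a genotype, the spread of the other genotype stands for both. All other alternatives kept both counts within 1.5 times. With a replicate block the counts were 2400 higher and 6757 lower. Deviations of libraries with the same number correlated at 0.117, and with only 2 pairs the numbers were not taken to pair the samples. Of the 149 named genes, 123 had the same call and direction under every alternative in which they were tested, and 0 were reversed. Some named genes were not tested under each alternative: 131 were tested when 1 FPKM was required in all 4 libraries.

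With 2 libraries per genotype, a single line and no read counts, small changes depend on the scaling, and low values near 1 FPKM carry an error that could not be worked out. The *nerd-1*+T libraries differed more from each other than those of WT. Genes in near-identical families, and transposable elements inside genes, share reads in a way that FPKM do not show. Strand, sampling time and growth plate cannot be examined in these files.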
